A study of Mus musculus with 12 samples.

Results

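The 44 collagen genes listed in the count table, out of 32285 genes in all, were followed in the tail nucleus pulposus of wild-type (WT) mice and of mice lacking Opa1 in disc and cartilage (Opa1cKO). Members were all rows whose symbol has the form Col, a number, a and a number (Col1a1 to Col28a1), so no measured value decided membership. The family itself was chosen with earlier results of these data known. Each genotype had 6 libraries, each from a different mouse, of C57BL/6-129/SvEv strain and 12 months old. Opa1, whose protein fuses the inner membranes of mitochondria, was deleted at 3 months of age with AcanCre, a recombinase that tamoxifen activates in cells that express aggrecan, and the mice then lived 9 months more. Both genotypes received 100 mg/kg tamoxifen on 3 days, so the drug is common to all 12 mice. The labels do not say whether WT mice carried AcanCre or floxed alleles. In bulk tissue, fewer cells of a type and less RNA per cell cannot be told apart.

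Collagens are secreted as trimers of chains wound into a triple helix, which repeats a glycine triplet along its length and needs proline hydroxylation for stability and lysine hydroxylation and oxidation for crosslinks. Fibrillar collagens (types I, II, III, V, XI, XXIV and XXVII) build load-bearing fibrils. FACIT collagens (fibril-associated collagens with interrupted triple helices, such as IX and XII) decorate fibril surfaces. Network-forming collagens include type IV of basement membranes, VIII and X. Type VI forms beaded filaments in the matrix around cells. The multiplexins XV and XVIII carry long sugar chains and sit at basement membranes. The nucleus pulposus is the hydrated core of the disc, in which a type II collagen network holds aggrecan, and type I is typical of the surrounding annulus fibrosus.

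The repeat that defines the family can be read in the genes themselves. In the GENCODE M21 annotation of mm10, 63.8% of internal coding exons of collagen genes (1224 of 1917) had a length divisible by 9 bases, the span of 1 glycine triplet, against 13.7% in all other protein-coding genes. Exons of exactly 54 bases, or 6 triplets, made up 48.6% of those in fibrillar genes (305 of 627) and 0.445% in the other protein-coding genes. The exons below are shown because they come from 3 of the 4 genes that passed the test in Opa1cKO, one each from the fibrillar, beaded filament and multiplexin classes. Each is the first 54-base exon of its gene made wholly of glycine triplets, read from mm10 on the gene's own strand, with every glycine codon (GGN) in capitals. They lie at chr3:145320661-145320714 (plus strand), chr10:76719623-76719676 (minus strand) and chr10:77067379-77067432 (minus strand).
Col24a1: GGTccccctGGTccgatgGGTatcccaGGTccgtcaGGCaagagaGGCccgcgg
Col6a1: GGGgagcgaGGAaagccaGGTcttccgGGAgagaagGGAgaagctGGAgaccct
Col18a1: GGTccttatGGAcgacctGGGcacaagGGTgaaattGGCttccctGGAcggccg
The exons share the glycine frame, and the codons between the glycines differ from gene to gene. Of the in-frame exons made wholly of glycine triplets, 32 of 50 had 54 bases in Col24a1. In Col6a1 3 of 17 did, and in Col18a1 1 of 12, the one shown. The longest uninterrupted run of such triplets was 216 in Col24a1, 87 in Col6a1 and 30 in Col18a1, and in Col12a1, the fourth gene, it was 32. Among fibrillar genes as a class the longest run had a median of 338 triplets (range 216 to 344), and the 2 multiplexins both had 30.

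Library totals ran from 37268242 to 56618266 counts, so 1 CPM (a count scaled to library total and TMM factor) stood for about 37 to 57 reads. Opa1 itself fell from 102 ± 17.3 to 40.6 ± 6.30 CPM (SD, n = 6 each; log2 fold change -1.22, edgeR adjusted p = 3.05e-05). Notochordal nucleus pulposus markers, chiefly Cd24a, T (brachyury), Krt19 and Krt8, summed to 8444 to 11862 CPM in WT and 7604 to 10369 in Opa1cKO. Of the 10 listed, Noto and Car12 stayed under 1 CPM everywhere. Opa1cKO 6 stood apart, though not alone. It was the highest of the 12 libraries for 16.7% of all tested genes, followed by Opa1cKO 3 (12.4%) and WT 1 (11.8%). Opa1cKO 6 had the lowest notochordal sum and, at 1014 CPM, the highest sum of cartilage chondrocyte markers (WT 441 to 622 CPM, other Opa1cKO 392 to 673 CPM). Hapln1 alone gave 867 CPM of the sum in Opa1cKO 6. Matn3, Cnmd and Cytl1 were also highest in that library, while Comp, Chad and Ucma were highest in Opa1cKO 3 and Snorc in WT 3. In 4 libraries (WT 4, WT 5, WT 6 and Opa1cKO 4) the sex-linked reads went against the labelled sex. Results are therefore also given without Opa1cKO 6 where that moves a call or a value by much, and a fit without those 4 libraries closes the account.

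Collagen transcripts were more abundant in most Opa1cKO libraries, but few single genes passed the test. Col12a1, Col18a1 and Col6a1 rose in Opa1cKO and Col24a1 fell, 4 of the 35 collagen genes with enough reads to test. Across all 15229 tested genes 10.2% were called at an edgeR adjusted p below 0.05, 5.1% higher and 5.13% lower, and the collagen count of 3 higher and 1 lower lies near that share. The fold changes leaned upward all the same: 26 of 35 were above 0, against 51.9% of all tested genes, and their median log2 fold change was 0.56, against 0.01. At an unadjusted p below 0.05, 13 members were higher and 2 lower, where all genes gave 13.6% and 11.7%. Leaving out Opa1cKO 6 turned these counts to 4 higher and 3 lower, for which no share of all genes is given. Without Opa1cKO 6 the median fell to 0.25 with 22 of 35 above 0 (52.4% of all genes), and the called members were Col12a1, Col18a1 and Col7a1, all higher, beside 5.34% of all genes called in either direction.

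**Figure D1:**
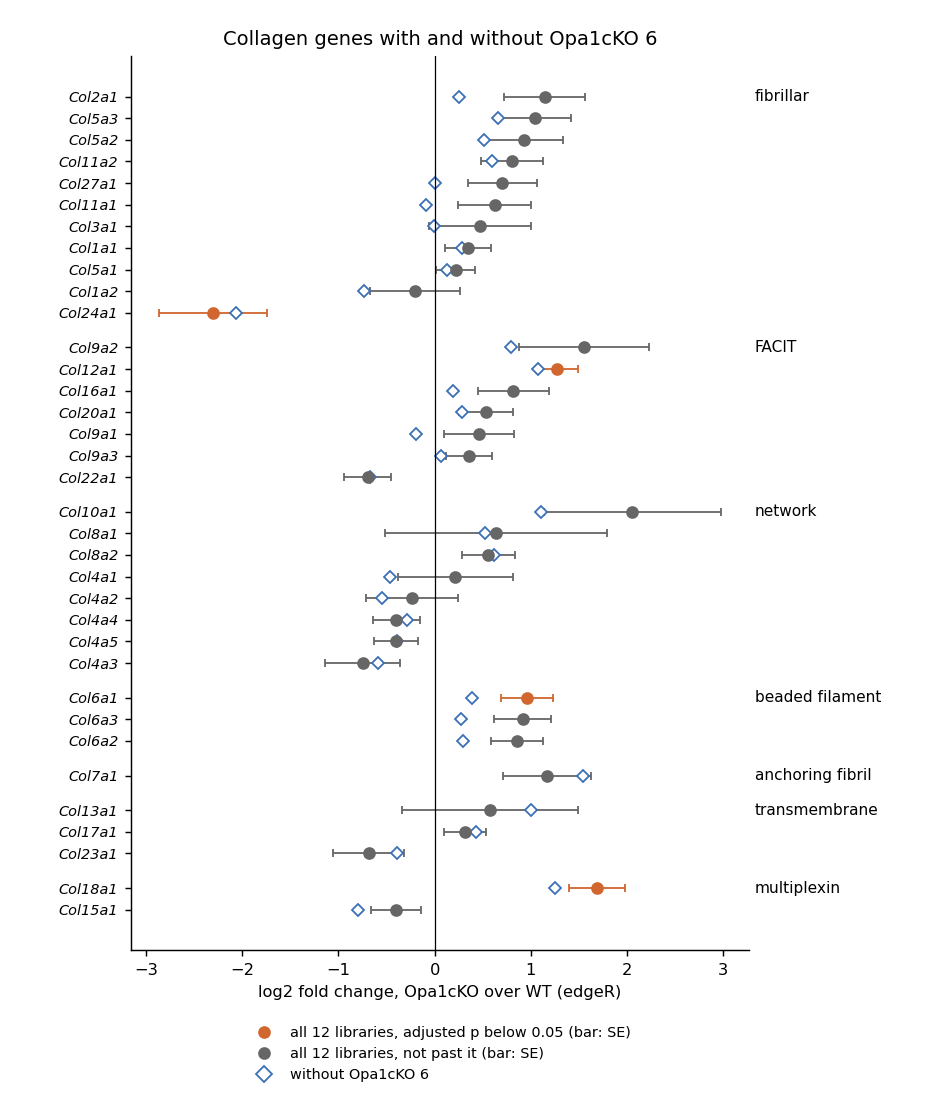
Log2 fold change of Opa1cKO over WT for the 35 tested collagen genes, grouped by class, with bars of 1 SE. Filled points use all 12 libraries, with the 4 called genes in orange, and open diamonds leave out Opa1cKO 6. Most points lie right of 0, and many diamonds lie nearer to 0 than their points.

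Per unit length, type VI collagen dominated the family in both genotypes. Levels between genes were compared in the deposited TPM (a length-scaled transcript share). Col6a1, Col6a2 and Col6a3 made up 29.2%, 16.7% and 14.7% of collagen TPM in WT, followed by Col2a1 (9.88%), Col5a1 (7.65%), Col1a1 (5.31%), Col15a1 (4.38%), Col11a1 (3.37%) and Col11a2 (3.33%). These 9 genes held 94.6% of all collagen TPM in WT. The order of Col6a1, Col6a2 and Col6a3 depends on the gene lengths behind the TPM. In CPM, which is not scaled to length, their WT means ran the other way, at 841, 921 and 1158. Beaded filament genes together took 60.6% ± 3.13 in WT and 63.2% ± 4.29 in Opa1cKO (SD, n = 6), and fibrillar genes 31.3% ± 2.88 and 30.9% ± 4.14. FACIT genes took 2.21% and 2.05% and network genes 0.767% and 0.698%. In all of these classes the ranges of the genotypes overlapped. The multiplexin share did not overlap, at 4.46% to 5.45% in WT and 2.22% to 3.52% in Opa1cKO. The summed multiplexin TPM itself overlapped, at 149 ± 37.5 in WT and 151 ± 61.5 in Opa1cKO. Its share was thus lower beside a higher collagen total in Opa1cKO.

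The summed TPM of all 44 genes was 3035 ± 628 in WT (range 2176 to 3603) and 5328 ± 2800 in Opa1cKO (2599 to 10747), which is 0.304% and 0.533% of all transcripts by this measure. In words, 5 of the 6 Opa1cKO libraries lay above every WT library, Opa1cKO 5 lay among the WT libraries and Opa1cKO 6 lay far above all others. The ratio of the means was 1.76 with all libraries and 1.40 without Opa1cKO 6, when the Opa1cKO mean was 4245 ± 996. No test was made on the sum.

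**Figure D2:**
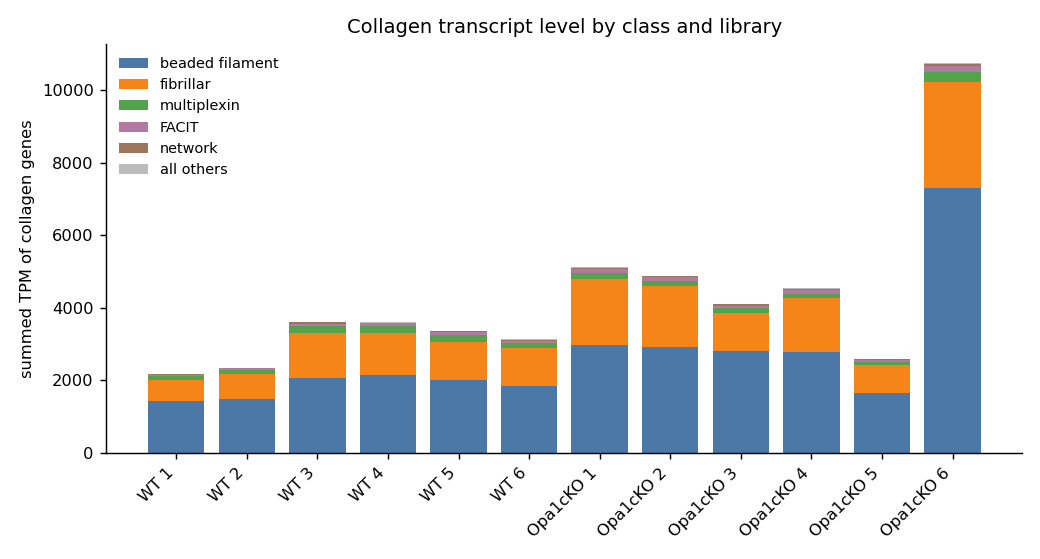
Summed TPM of the collagen genes in each library, stacked by class. WT libraries reach 2176 to 3603 TPM and Opa1cKO libraries 2599 to 10747 TPM, with Opa1cKO 6 highest and Opa1cKO 5 lowest among the knockouts, and type VI (beaded filament) the largest layer in each of the 12.

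Among fibrillar genes 1 of 11 was called, Col24a1, and it was lower, beside 5.13% of all genes. The median log2 fold change of the class was 0.62, or 0.13 without Opa1cKO 6. Col2a1, the main fibril collagen of cartilage and nucleus pulposus, had 407, 592 and 841 CPM (lowest, median, highest) in WT and 355, 990 and 3130 CPM in Opa1cKO. Opa1cKO 5 was the lowest and Opa1cKO 6 the highest of all 12 libraries, so the WT range lay inside that of the knockout. The change of Col2a1 was 1.14 on the log2 scale (SE 0.418, edgeR adjusted p = 0.109), and 0.25 without Opa1cKO 6 (adjusted p = 0.773).

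Type XI chains join type II in cartilage fibrils and limit their width. Col11a2 had 80.0, 163 and 228 CPM in WT and 163, 300 and 461 CPM in Opa1cKO. WT 3, 5 and 6 lay inside the knockout range, and Opa1cKO 6, at 319 CPM, was not extreme here. Its log2 fold change was 0.80 (edgeR adjusted p = 0.142), or 0.59 without Opa1cKO 6. Col11a1 was at 0.62 and turned to -0.09 without that library (adjusted p = 0.333 and 0.920).

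Type I collagen, the bulk collagen of annulus, tendon and bone, was given by 2 chains at very different levels. Col1a1 had 134, 263 and 312 CPM in WT and 220, 344 and 479 CPM in Opa1cKO, with overlapping ranges, a log2 fold change of 0.35 and an edgeR adjusted p of 0.398. Col1a2 was at -0.20 (adjusted p = 0.834), or -0.73 without Opa1cKO 6 (adjusted p = 0.438), between 5.01 and 23.7 CPM in WT and 5.03 and 23.3 CPM in Opa1cKO. Type I protein normally holds 2 Col1a1 chains for each Col1a2 chain. The TPM ratio is another measure, of transcripts, and depends on the gene lengths the authors used. For Col1a1 to Col1a2 it had a median of 31.5 in WT (20.3 to 53.9) and 59.6 in Opa1cKO (23.7 to 131). The low Col1a2 level was thus present in both genotypes, and their ranges overlapped. Col3a1, the partner of type I in loose connective tissue, stayed between 0.420 and 3.53 CPM in all 12 libraries.

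Type V chains start fibril assembly. Col5a1 went from 440 ± 119 CPM (WT) to 529 ± 111 CPM (Opa1cKO) (log2 fold change 0.22, edgeR adjusted p = 0.540), Col5a2 was at 0.93 (adjusted p = 0.166) and Col5a3 at 1.04 (adjusted p = 0.107), or at 0.51 and 0.66 without Opa1cKO 6. Of these, Col5a3 had the widest gap, with 24.7 to 81.9 CPM in WT and 38.2 to 164 CPM in Opa1cKO, and 4 of 6 knockout libraries above every WT library. Col27a1, a cartilage fibrillar collagen, was at 0.70 and at 0.01 without Opa1cKO 6 (adjusted p = 0.254 and 0.994).

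Col24a1 (ENSMUSG00000028197, chromosome 3, 145292472 to 145552011, plus strand), a minor fibrillar collagen with a short triple helix, was the single member called lower in the test with labelled sex. It had 0.0651, 0.705 and 0.941 CPM in WT and 0.0234, 0.132 and 0.215 CPM in Opa1cKO. WT 3 lay among the knockouts, and the other 5 WT libraries lay above all of them. Its log2 fold change was -2.30 (SE 0.561, edgeR adjusted p = 0.0189), on 3 to 45 reads in WT libraries and 1 to 9 in Opa1cKO libraries. The call was lost without WT 5, WT 6 or Opa1cKO 6 (adjusted p = 0.0507, 0.0636 and 0.0535), with a fold change of -2.06 in the last case. It passed in 9 of 12 fits with 1 library left out.

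Among FACIT genes 1 of 7 tested was called, and it was higher, beside 5.1% of all genes. Col12a1 (ENSMUSG00000032332, chromosome 9, 79598991 to 79718831, minus strand) encodes a long collagen that bridges neighbouring type I fibrils and is prominent in tendon, ligament and other tissue under tension. It had 5.80, 8.63 and 12.4 CPM in WT and 13.7, 18.2 and 30.9 CPM in Opa1cKO. Every knockout library exceeded every WT library, which held for 2 members and for 2.77% of all tested genes; no member lay wholly below WT, where 3.64% of all genes did. The change was 1.28 on the log2 scale (SE 0.218, edgeR adjusted p = 0.00295) and 1.07 without Opa1cKO 6 (adjusted p = 0.0178). The call held with any 1 library left out.

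Type IX collagen coats type II fibrils in cartilage. Its chains Col9a1, Col9a2 and Col9a3 had log2 fold changes of 0.46, 1.56 and 0.36, none past the test (edgeR adjusted p = 0.467, 0.170 and 0.375). Col9a3, the most abundant of them, averaged 30.0 ± 8.89 CPM in WT and 40.8 ± 12.6 CPM in the knockouts, while Col9a2 stayed between 0.0664 and 5.02 CPM. Without Opa1cKO 6 Col9a2 was at 0.80 (adjusted p = 0.661) and Col9a1 turned to -0.19. In that library Col9a1 reached 11.02 CPM against 2.58 to 4.47 in the other knockouts. Col16a1, found in fibrillin-rich and fibrillar matrix, was at 0.82 (adjusted p = 0.196) and at 0.19 without Opa1cKO 6. Col22a1, a collagen of tissue junctions, was the one FACIT gene below 0, at -0.70 (adjusted p = 0.0870), with 2.96 to 6.79 CPM in WT and 1.49 to 3.30 CPM in Opa1cKO. Col20a1 was at 0.54 (adjusted p = 0.252).

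Type VI collagen links cells to the matrix around them and is the main collagen of the pericellular zone in cartilage and disc. Col6a1 (ENSMUSG00000001119, chromosome 10, 76708792 to 76726168, minus strand) had 657, 874 and 966 CPM in WT and 791, 1368 and 3213 CPM in Opa1cKO. In 5 knockout libraries it exceeded every WT library, and Opa1cKO 5 lay among the WT values. For Col6a1 the log2 fold change was 0.96 (SE 0.268, edgeR adjusted p = 0.0388), a call that passed in 2 of 12 fits with 1 library left out, those without Opa1cKO 3 or Opa1cKO 5. Without Opa1cKO 6 it was 0.39 (adjusted p = 0.196).

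Its partner chains were likewise highest in Opa1cKO 6, and did not pass. Col6a2, which lies near Col6a1 on the same strand of chromosome 10, had 684 to 1039 CPM in WT and 774 to 3112 CPM in Opa1cKO (log2 fold change 0.86, edgeR adjusted p = 0.0595). Col6a3, from another chromosome, had 874 to 1434 and 1104 to 4871 CPM (0.91, adjusted p = 0.0690). Without Opa1cKO 6 they were at 0.29 and 0.27. The TPM ratio of Col6a1 to Col6a2 stayed within 1.52 and 1.96 in all 12 libraries, and the genotypes overlapped, while the CPM of both chains differed far more between libraries. The alternative chains Col6a4, Col6a5 and Col6a6 had too few reads to test.

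**Figure D3:**
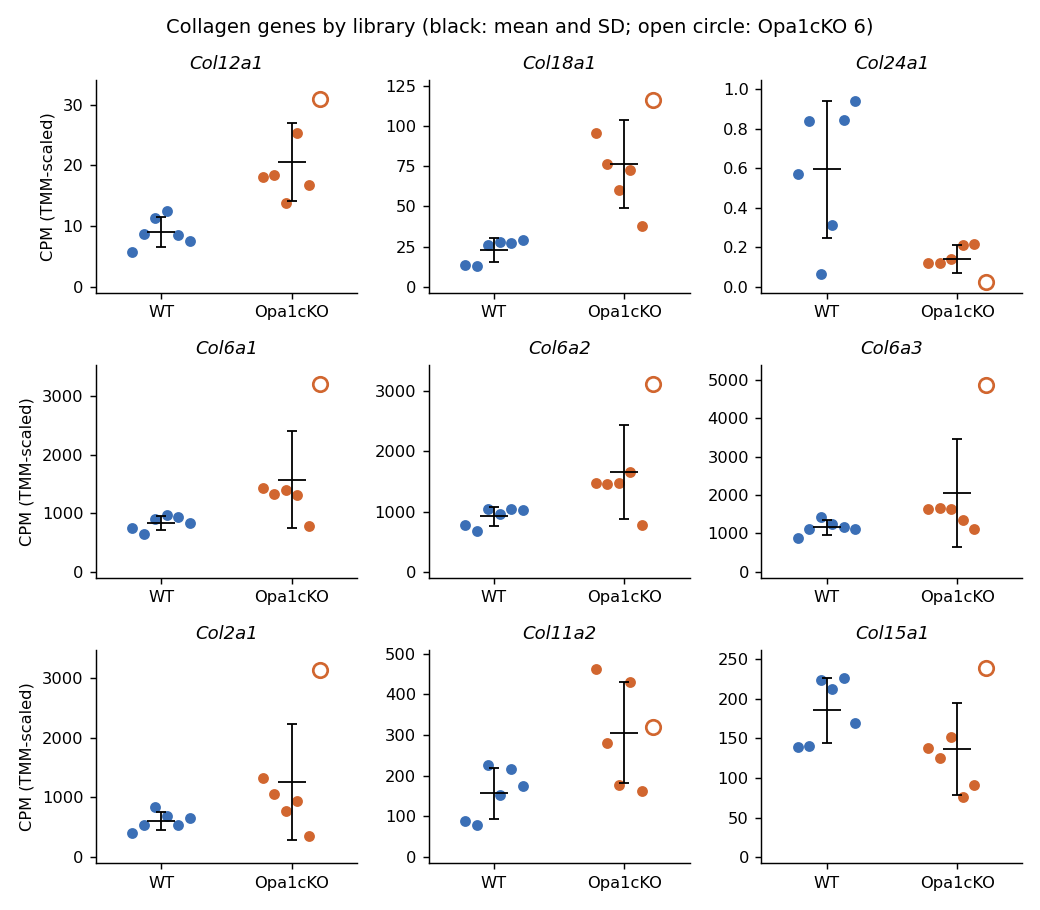
TMM-scaled CPM of 9 collagen genes in each library (linear axes), with mean and SD in black and Opa1cKO 6 as an open circle. Col12a1 and Col18a1 show no overlap between genotypes, and for Col6a1, Col6a2, Col6a3 and Col2a1 Opa1cKO 6 lies far above the other knockouts.

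Of the 2 multiplexins, 1 was called higher, beside 5.1% of all genes. Col18a1 (ENSMUSG00000001435, chromosome 10, 77052178 to 77166548, minus strand), a basement membrane proteoglycan whose cleaved end is endostatin, had 13.1, 26.5 and 29.1 CPM in WT and 38.0, 74.2 and 116 CPM in Opa1cKO. Every knockout library exceeded every WT library. The log2 fold change was 1.69 (SE 0.291, edgeR adjusted p = 0.00409) and 1.25 without Opa1cKO 6 (adjusted p = 0.0147), and the call held with any 1 library left out. Col15a1, its relative, had 139, 191 and 226 CPM in WT and 75.8, 132 and 239 CPM in Opa1cKO. Opa1cKO 6 was the highest of all 12, and 4 of the other knockouts were below every WT library. The log2 fold change was -0.41 (adjusted p = 0.359), or -0.80 without Opa1cKO 6 (adjusted p = 0.0601).

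The TPM ratio of Col18a1 to Col15a1 was looked at after these values had been seen, so it is a description. It had 0.0845, 0.106 and 0.155 in WT and 0.358, 0.494 and 0.863 in Opa1cKO. The genotypes did not overlap, and Opa1cKO 6, at 0.440, lay in the middle of the knockouts. The difference of log2 means was 2.25, or 2.29 without Opa1cKO 6, and 2.09 to 2.35 with any 1 library left out. As a share of collagen TPM, Col18a1 went from 0.479% ± 0.093 to 0.988% ± 0.163 and Col15a1 from 4.38% ± 0.347 to 1.97% ± 0.515 (SD, n = 6). The 11 other chain ratios computed all overlapped between genotypes.

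**Figure D4:**
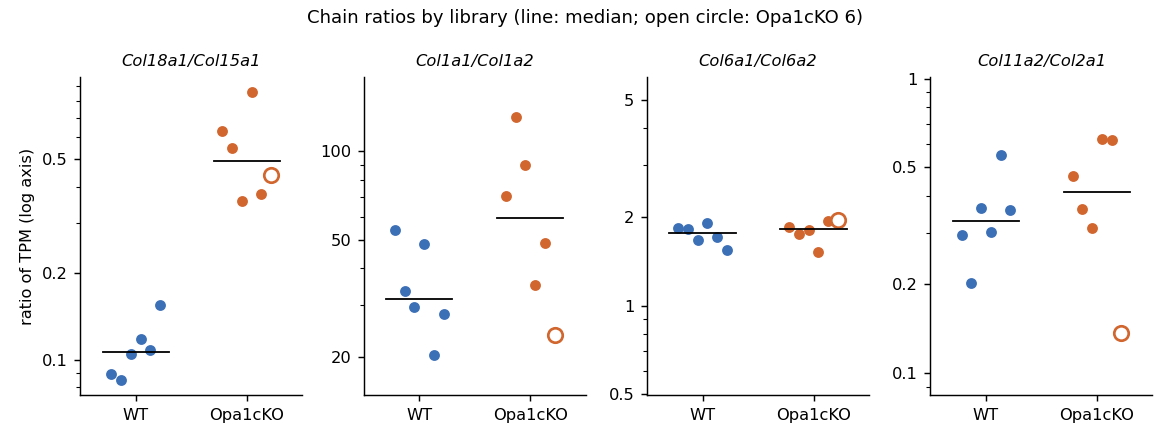
Ratios of TPM between pairs of collagen genes in each library (log axes, line at the median, Opa1cKO 6 as an open circle). Col18a1 over Col15a1 separates WT (0.0845 to 0.155) from Opa1cKO (0.358 to 0.863), and the other pairs overlap.

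Of the 8 tested network-forming genes 0 passed the edgeR test, beside 10.2% of all genes, so in a list this short the count lies near that share. DESeq2 and limma-voom also called 0, with no share of all genes given for them. Without Opa1cKO 5, Col4a3 and Col4a4 were called lower by edgeR (log2 fold changes -1.30 and -0.75, adjusted p = 0.0407 and 0.0356). With all 12 libraries Col10a1 alone had an unadjusted edgeR p below 0.05. With the replicate number as a block, which did not pair the libraries, edgeR called Col10a1 higher (1.86, adjusted p = 0.00902). The class median was -0.01 on the log2 scale, or -0.34 without Opa1cKO 6. The basement membrane chains Col4a1 and Col4a2 were low, at 0.354 to 3.49 and 1.68 to 14.9 CPM over all libraries, with WT 5 highest for both. Markers of endothelial cells, which make type IV, were low too: 5 of the 7 listed (Cdh5, Kdr, Tek, Emcn and Tie1) stayed under 1 CPM in all libraries. Col4a3, Col4a4 and Col4a5, the chains of kidney and other specialised basement membranes, were at -0.75, -0.40 and -0.40 (edgeR adjusted p = 0.252, 0.326 and 0.293). Col8a1 and Col8a2 were at 0.64 and 0.56 (adjusted p = 0.781 and 0.225).

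Col10a1, the marker collagen of hypertrophic chondrocytes, had 0.114, 1.42 and 2.47 CPM in WT and 0.547, 3.76 and 19.1 CPM in Opa1cKO. Opa1cKO 3, 4, 5 and 6 lay above every WT library, and Opa1cKO 1 and 2 lay within the WT range. The log2 fold change was 2.05 (SE 0.920, edgeR adjusted p = 0.192), and 1.10 without Opa1cKO 6 (adjusted p = 0.601). Of the 10 listed markers of hypertrophic chondrocytes and osteoblasts, 8, among them Ihh, Alpl and Bglap, stayed under 1 CPM in all 12 libraries. Spp1 (osteopontin), also on that list and made by many other cells, had a mean of 7048 CPM in WT and of 9026 CPM in the knockouts (log2 fold change 0.28, adjusted p = 0.373), and Ibsp averaged 0.989 and 0.330 CPM. Nt5dc1, on the opposite strand, covers the whole of Col10a1 and was at -0.09 (adjusted p = 0.589). Without a stated strand setting for the counting, reads of the pair cannot be told apart.

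Col7a1, the anchoring fibril collagen that ties epithelial basement membranes to the tissue below, had 0.199, 0.458 and 0.607 CPM in WT and 0.281, 0.983 and 2.12 CPM in Opa1cKO. All knockouts except Opa1cKO 6 exceeded every WT library. On the log2 scale the change was 1.17 (edgeR adjusted p = 0.125), and without Opa1cKO 6 it was 1.54 and passed (adjusted p = 0.0453), on 9 to 104 reads a library. The transmembrane collagens Col13a1, Col17a1 and Col23a1 were at 0.58, 0.31 and -0.68, with adjusted p of 0.746, 0.397 and 0.268. The 9 members with too few reads to test were Col4a6, Col6a4, Col6a5, Col6a6, Col14a1, Col19a1, Col25a1, Col26a1 and Col28a1, each with at most 25 reads in any library.

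The pattern across libraries was uneven in both genotypes. Opa1cKO 6 was the highest of the 12 libraries for 15 of 35 members (42.9%), against 16.7% of all tested genes. At the other end, WT 2 was the lowest for 17 members (48.6%) and WT 1 for 9 (25.7%), against 9.76% and 11.2% of all genes. Opa1cKO 5 was the lowest knockout for 15 members, and leaving it out gave 7 members higher and 3 lower, beside 6.53% and 5.71% of all genes. WT 1 and WT 2 had sums of annulus, tendon and fibroblast markers of 27.2 and 35.2 CPM (WT range 27.2 to 69.0, Opa1cKO 34.3 to 98.4). WT 6 summed to 34.4 CPM. Of the tested genes of that list only Mkx was lower in WT 6 (13.6 CPM) than in WT 2 (25.9 CPM). Scx, Cilp, Angptl7 and Lum were higher in WT 6, with Cilp at 11.4 against 3.78 CPM. Cartilage chondrocyte marker sums of WT 1 and WT 2, at 503 and 571 CPM, were not low among WT (441 to 622), but were mostly Hapln1 (445 and 528 CPM). Comp (3.13 and 3.27 CPM), Chad (3.92 and 6.10 CPM) and Cnmd were lower in WT 1 and WT 2 than in any other WT library. For Matn3, Cytl1, Snorc and Ucma these were not both the lowest WT libraries. The pericyte and smooth muscle list, chiefly Cspg4 and Acta2, summed to 547 to 658 CPM in WT and 664 to 1522 in Opa1cKO, highest in Opa1cKO 6. Within that list Cspg4, which cartilage and disc cells also express, rose (log2 fold change 1.13, edgeR adjusted p = 0.0426), a call lost without Opa1cKO 6 (0.50, adjusted p = 0.238). Myh11, the smooth muscle myosin of the same list, was at -0.82 and did not pass. Of 4 tested macrophage markers, the lysosomal gene Cd68 rose from 15.3 to 38.6 CPM (1.28, adjusted p = 0.000152) and the receptor gene Csf1r fell from 116 to 66.2 CPM (-0.88, adjusted p = 0.00468). Both passed without Opa1cKO 6, at 1.22 and -0.87, and Adgre1, C1qa and C1qb stayed under 1 CPM everywhere. The part of these cell type markers in the collagen values was not tested.

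**Figure D5:**
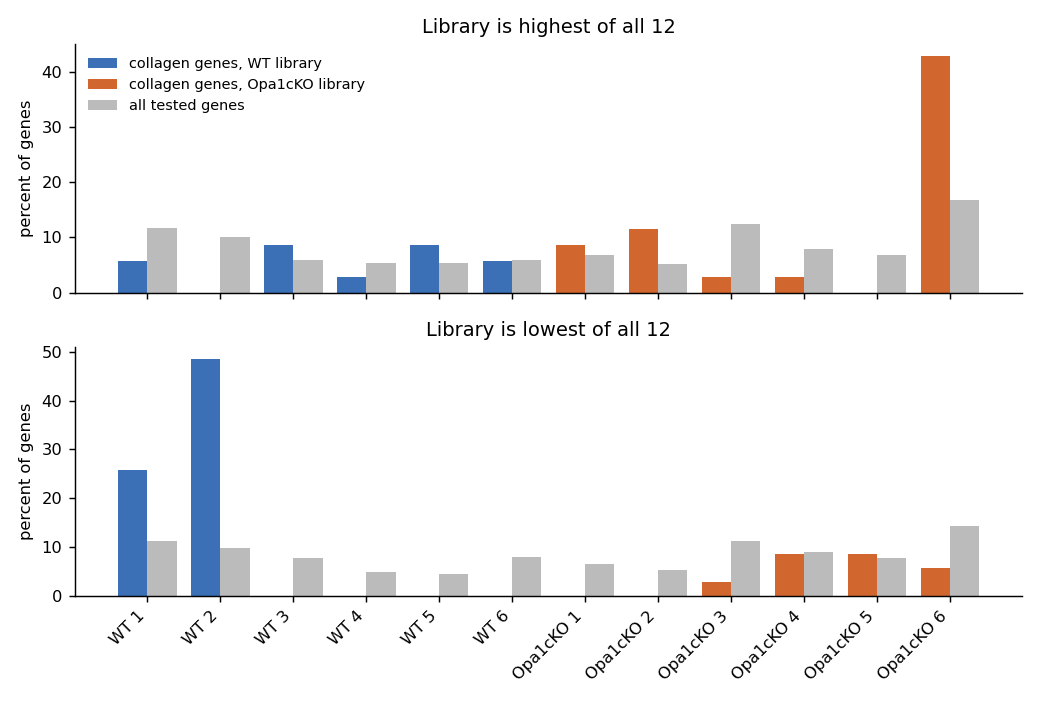
Percent of the 35 tested collagen genes (coloured) and of all tested genes (grey) for which each library was the highest (upper panel) or the lowest (lower panel) of all 12. Opa1cKO 6 was highest for 42.9% of collagen genes, and WT 2 and WT 1 were lowest for 48.6% and 25.7%.

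Of 63 genes that make, process, bind, break down or regulate collagen, 53 were tested, with 4 higher and 3 lower and a median log2 fold change of 0.06, beside 5.1% and 5.13% of all genes. The hydroxylation genes gave 1 higher and 2 lower of 13. P4ha1 and P4ha3 encode catalytic subunits of the prolyl 4-hydroxylase that stabilises the triple helix. P4ha1 had 259, 298 and 330.2 CPM in WT and 202, 222 and 236 CPM in Opa1cKO, with no overlap, and fell (log2 fold change -0.38, SE 0.0766, edgeR adjusted p = 0.00748). P4ha3 had 104, 136 and 147 CPM in WT and 64.6, 78.9 and 101 CPM in Opa1cKO, again without overlap, and fell (-0.70, SE 0.117, adjusted p = 0.00228). Both calls held with any 1 library left out. P3h4, a partner of the lysyl and prolyl 3-hydroxylases, rose by 0.32 (adjusted p = 0.0393), a call kept in 4 of 12 such fits.

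Opa1cKO 6 differed from the other knockouts in this group as well. P4ha2, the other catalytic subunit, had 87.3 to 121 CPM in WT and 53.8 to 155 CPM in Opa1cKO (-0.37, edgeR adjusted p = 0.270). Without Opa1cKO 6, its highest library, the ranges did not overlap and it was at -0.75 (adjusted p = 0.00109). The lysyl hydroxylases Plod1 and Plod2 were at -0.41 and -0.70 (adjusted p = 0.0331 and 0.00352) and the lysyl oxidase Loxl2 at -0.97 (adjusted p = 0.0473) in that fit, from -0.30, -0.36 and -0.74 with all libraries. In all, 6 of the pathway genes were lower and 1 higher without that library, where 3.23% and 2.11% of all genes were.

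Folding, glycosylation and secretion genes gave 3 higher and none lower of 13, beside 5.1% and 5.13% of all genes, and 1 higher without Opa1cKO 6. Sec24d, a coat protein of the vesicles that carry procollagen out of the endoplasmic reticulum, had 54.4, 59.3 and 66.2 CPM in WT and 65.7, 72.3 and 114 CPM in Opa1cKO. The ranges touched only at the edge, and it rose by 0.50 (SE 0.109, edgeR adjusted p = 0.0111), a call kept with any 1 library left out. Its partner Sec23a (0.38, adjusted p = 0.0488) and the collagen galactosyltransferase Colgalt1 (0.37, adjusted p = 0.0332) rose too, but kept the call in 2 and 5 of 12 such fits. The collagen chaperone Serpinh1 was at 0.08 (adjusted p = 0.736).

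Of the 7 tested collagen receptors, Itga1, the integrin subunit that binds type IV and other collagens, went from 233 to 406 CPM in WT to 136 to 299 CPM in Opa1cKO. It fell (log2 fold change -0.73, edgeR adjusted p = 0.0336), a call kept in 4 of 12 fits with 1 library left out. The median of the tested receptors was -0.25. Of the propeptide processing, crosslinking, breakdown and transcription factor genes, 5, 5, 4 and 6 were tested and edgeR called 0, beside 10.2% of all genes. At an unadjusted p below 0.05 they gave 1 propeptide processing gene higher and, among crosslinking genes, 1 higher and 1 lower, beside 13.6% of all genes higher and 11.7% lower. The lower one was Loxl2, which DESeq2 and limma-voom called, and those tools called no other gene of these lists. The cartilage factor Sox9 was at 0.20 (adjusted p = 0.362) and the main collagenase gene Mmp13 had too few reads to test.

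In the fit without the 4 libraries of contradicted sex, which leaves only labelled females in WT (WT 1, 2 and 3), edgeR called 0 collagen genes, beside 1.2% of all genes higher and 0.874% lower. With its sex term that fit compares genotype only between those 3 and the labelled females Opa1cKO 5 and 6. At an unadjusted p below 0.05 there were 7 members higher and 1 lower of 36 in that fit, beside 11.5% and 8.86%. Col12a1 and Col18a1 were at adjusted p of 0.0546 and 0.0668 there (edgeR), and the median over members was 0.88. Slc19a1, on the opposite strand, overlaps 8825 bases of Col18a1 and was at -0.11 (adjusted p = 0.637). Tcfl5 overlaps 234 bases of Col9a3 and rose by 0.81 (adjusted p = 0.0124), a call lost without Opa1cKO 6 (0.74, adjusted p = 0.0574).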

How the data were processed

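Bulk RNA was sequenced from dissected tail nucleus pulposus. Per the labels' protocols, libraries used 50 ng of RNA, a stranded kit that removes ribosomal RNA and 14 PCR cycles. The submitters' processing notes name STAR 2.7.11b and the mm10 build. Which counter, annotation and strand mode were used is not stated in these sources. The authors deposited whole-number counts per gene and a table of TPM values. Within a gene, TPM equalled counts over a constant length in these tables, so TPM ratios depend on the length the authors used.

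The test was the quasi-likelihood test of edgeR 4.0.16 under R 4.3.3, fitted robustly on all 12 libraries with terms for labelled sex and genotype, after TMM scaling and filterByExpr (minimum count 10), with Benjamini-Hochberg adjustment over 15229 genes. Labelled sex was unbalanced, with 4 females and 2 males in WT and 2 and 4 in Opa1cKO. Calls needed an adjusted p below 0.05 and no fold threshold. All 35 members in the fit are named by value or range, and from the pathway and marker lists the called genes; Serpinh1, Sox9, Myh11, Spp1, Ibsp and the genes called without Opa1cKO 6 were added after their values were seen. Alternatives used DESeq2 1.42.0, limma 3.58.1, other covariates, filters, scalings and TPM with pseudocounts of 1 and 0.1. The fit was tested on simulated counts. No library pair agreed within sampling noise (smallest chi-square per degree of freedom 26.1). The collagen genes and all lists were chosen with earlier results of these data known. Exons and gene positions came from GENCODE M21. Each SD is between the libraries of a genotype, and each SE was derived from the F statistic of the edgeR test. PCR copies cannot be told from molecules.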

Additional observations from a re-analysis of the deposited data

Results flagged for a closer look

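In 6 of the 96 groups of 6 libraries examined (each tested collagen gene, each chain ratio and the summed collagen TPM, in each genotype), 1 library lay far from the other 5 by Dixon's criterion; chance gives about 1 in 20 groups. Opa1cKO 6 was that library in 4 of them. It had 11.02 CPM of Col9a1 (other knockouts 2.582 to 4.467), 4871 CPM of Col6a3 (1104 to 1657), 3.464 CPM of Col4a1 (0.9791 to 1.507) and a Col9a1 to Col9a3 ratio of 0.1591 (0.06331 to 0.08118). WT 3 was the other, with 6.791 CPM of Col22a1 (other WT 2.964 to 3.725) and 2.625 CPM of Col8a1 (0 to 0.5587).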

How the results depend on the processing

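Col12a1 and Col18a1 passed in 12 of 12 fits with 1 library left out and in 12 of 13 other settings, Col6a1 in 2 and 7, and Col24a1 in 9 of 12 and in 8 of the 12 others that tested it. With each library left out in turn, 2 to 7 collagen genes were called higher and 0 to 3 lower, and 1 to 6 pathway genes higher and 2 to 6 lower; the highest counts of collagen genes came without Opa1cKO 5. Without a sex covariate 6 collagen genes were higher, 2 lower and 6 pathway genes lower. No collagen gene was lower with sex as the reads show it, with a floor of 1 CPM in 6 libraries (Col24a1 was not tested) or in TPM with a pseudocount of 1. DESeq2 gave 2 lower and 5 pathway genes lower, limma-voom 5 and quality weights 9 pathway genes lower. Apart from the test itself, shares of all genes are given above only without Opa1cKO 5, without Opa1cKO 6 and without the 4 libraries. In the other settings the counts therefore cannot be set beside those of all genes. Without the 4 libraries of contradicted sex there were 0 calls in both lists and directions, and the median was 0.88. Col1a2 (0.67), Col4a2 (0.14), Col4a4 (0.12) and Col8a1 (-0.16) turned. The males left were all knockouts, so with the sex term genotype rested on WT 1, 2 and 3 against Opa1cKO 5 and 6. Why the calls were lost there was not tested.

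With the replicate number as a block, 3 collagen genes were higher (Col12a1, Col18a1 and Col10a1, the last at 1.86, adjusted p = 0.00902) and 0 lower, 2 pathway genes were higher and Col4a2 was at 0.060. Col6a1, Col24a1 and Sec24d were not called there (adjusted p = 0.0852, 0.107 and 0.0955), nor were Colgalt1, Sec23a and Itga1. Numbers did not pair the libraries: same-numbered libraries correlated at -0.333 to 0.125, and 0 of 6 in either genotype correlated best with their own number. Uncalled genes whose sign turned were Col4a2 (0.010 by limma-voom, 0.041 in TPM with a pseudocount of 0.1; -0.55 to 0.37 with 1 library left out), Col8a1 (-0.073 to 1.65), Col11a1 (-0.090 to 0.86), Col3a1 (-0.0077 to 1.18), Col4a1 (-0.46 to 1.02) and Col9a1 (-0.19 to 0.65). Where a setting moved a count and no reason is given, the cause was not tested. Genes under about 1 CPM, such as Col24a1 and Col7a1, rest on few reads.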
